A study of Mus musculus with 18 samples.

Results

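Oligodendrocyte precursor and early lineage genes were followed in mouse substantia nigra, a midbrain nucleus where dopaminergic neurons reside among glia. The group holds 9 genes, Pdgfra, Cspg4, Vcan, Olig1, Olig2, Sox10, Gpr17, Bcas1 and Enpp6, chosen by name for their place in the lineage and not by their values. All 9 were found among the 55270 genes of the deposited table, and all 9 were among the 19443 genes with enough reads to be tested.

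Poly-A RNA was sequenced from 3 groups of 6 mice, 1 library a mouse, each taken at 3 months of age. Intact mice carry the genotype label WT and the labels give them no virus. AAV-GFP mice received an adeno-associated virus that overexpresses green fluorescent protein, and AAV-SIRT3 mice received one that overexpresses SIRT3, a mitochondrial deacetylase. Tissue was collected a month after virus delivery, and the labels name neither the serotype nor the promoter, nor whether intact mice were injected with anything. The virus titre, the sex and the litter of the mice are not given either. Values are normalised reads, which are reads per gene divided by 1 size factor for each library, and they are not corrected for the length of the transcript.

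Oligodendrocyte precursor cells (OPCs) are proliferating glia that persist in the adult brain and carry the PDGF receptor alpha and the NG2 proteoglycan on their surface. Some of them leave the cell cycle, pass through a short committed stage marked by Gpr17, and become premyelinating oligodendrocytes that express Bcas1 and Enpp6 before they form myelin. Olig1, Olig2 and Sox10 encode transcription factors that are expressed from the precursor through to the mature oligodendrocyte, so their RNA reports the whole lineage rather than the precursor alone. In a whole-tissue extract, fewer cells of a type and less RNA per cell cannot be told apart.

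Pdgfra, Cspg4 and Vcan varied together between libraries, as described below, and the sequence just upstream of each is shown for that reason. For Vcan this did not hold once a trend with transcript length was removed, with r = 0.13 with Pdgfra and 0.22 with Cspg4. The windows are the 179 bases from 250 to 72 bases before the RefSeq start (GRCm38.p6), read 5′ to 3′ on the strand of the gene, at chr5:75152001-75152179 on the plus strand for Pdgfra, chr9:56864854-56865032 on the plus strand for Cspg4 and chr13:89742584-89742762 on the minus strand for Vcan. Capitals mark GGGCGG on either strand, the core of the GC box bound by Sp1.
Pdgfra: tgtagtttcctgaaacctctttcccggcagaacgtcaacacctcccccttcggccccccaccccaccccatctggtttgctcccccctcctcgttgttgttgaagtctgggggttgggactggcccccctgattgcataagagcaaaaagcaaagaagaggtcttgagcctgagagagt
Cspg4: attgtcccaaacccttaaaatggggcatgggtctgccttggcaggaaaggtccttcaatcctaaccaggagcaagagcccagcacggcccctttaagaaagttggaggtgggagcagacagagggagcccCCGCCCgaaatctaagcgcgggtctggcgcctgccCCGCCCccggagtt
Vcan: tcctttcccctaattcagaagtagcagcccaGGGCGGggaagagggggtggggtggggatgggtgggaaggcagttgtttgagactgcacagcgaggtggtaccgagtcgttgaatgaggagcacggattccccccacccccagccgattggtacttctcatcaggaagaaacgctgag
The Cspg4 window held the GC box core 2 times, starting 120 and 85 bases before the start, and the Vcan window held it 1 time, at 219 bases. The Pdgfra window did not hold these letters. Of 32851 windows of the same length in the RefSeq table, 20.9% held the core. Neither CAGCTG, an E-box that fits proteins such as Olig2, nor ACAAAG, a core bound by SOX proteins, was in any of these 3 windows on either strand, against 9.16% and 12.2% of all windows. The 3 motifs do not overlap one another in letters. GC content was 56.4% for Pdgfra, 60.3% for Cspg4 and 58.7% for Vcan, against a median of 51.4% over all windows. These are matches of letters and were not tested as binding sites.

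All 9 genes were well measured. The reads recovered for a single gene in a single library ran from 1004 to 28001, so counting error was between 0.651% and 2.79% of the group means. The spread between mice in a group was larger for every gene, with a coefficient of variation from 2.74% for Olig1 in AAV-SIRT3 to 15.3% for Enpp6 in AAV-GFP. Over all 18 libraries Enpp6 and Olig2 varied most, and Pdgfra and Olig1 least.

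**Figure D1:**
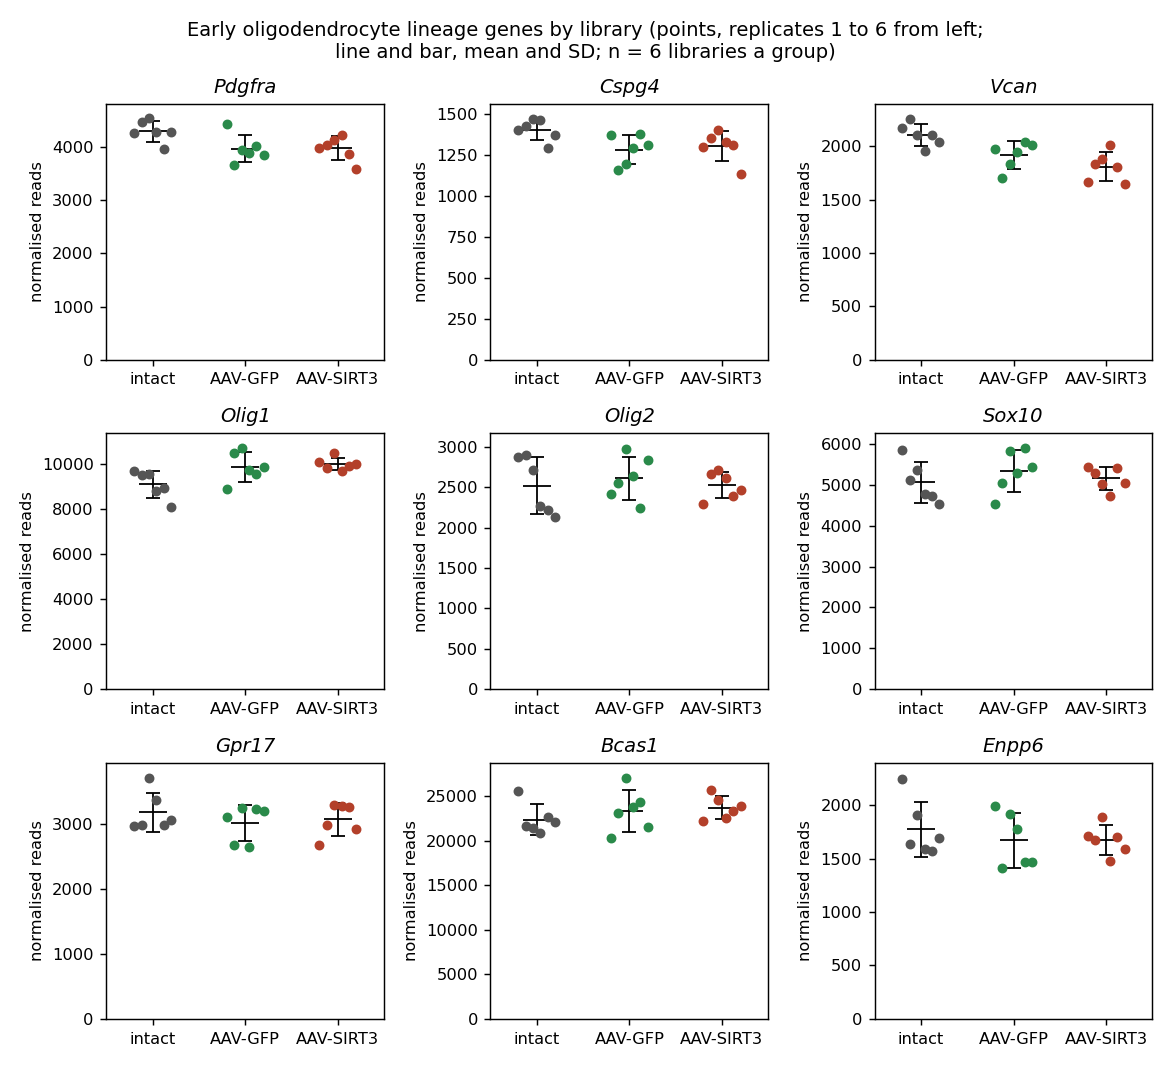
Normalised reads (vertical axes, starting at 0) of the 9 genes in each library of the 3 groups, with points for replicates 1 to 6 from left to right, a line at the mean and a bar of 1 SD (n = 6). AAV-SIRT3 points of Olig1 all lie above the intact points, while for the other genes the groups overlap.

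Levels between genes were compared per kb of annotated exon (GENCODE M21, GRCm38). Bcas1 was the most abundant at 6133 ± 477 normalised reads per kb, followed by Olig1 at 4465 ± 301, Sox10 at 1699 ± 141 and Olig2 at 1008 ± 102 (SD, n = 18 libraries). Gpr17 came next at 594 ± 51.5, then Pdgfra at 407 ± 26.6, Enpp6 at 266 ± 33.7, Vcan at 134 ± 11.9 and Cspg4 at 111 ± 8.06. The 4 genes known to stay on in the mature cell stood above the 5 others. Each neighbour in this order was separated from the next over all 18 libraries, except Vcan and Cspg4, whose ranges overlapped.

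Olig1 and Olig2 are neighbours on chromosome 16, 41094 bp apart with 1 annotated gene between them. Olig1 per kb was 4.27 ± 0.355 times Olig2 in intact, 4.45 ± 0.362 times in AAV-GFP and 4.65 ± 0.321 times with AAV-SIRT3 (SD over 6 libraries).

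The PDGF receptor gene Pdgfra encodes the receptor through which PDGF-A keeps precursors dividing, and it is also expressed by fibroblasts of the meninges and vessels. It is annotated at 75152292 to 75198215 of chromosome 5 (plus strand). Normalised reads ran from 3955 through a median of 4277 to 4540 in intact, from 3660 through 3919 to 4439 in AAV-GFP and from 3595 through 4019 to 4235 in AAV-SIRT3 libraries. Below the lowest intact library lay 4 of 6 AAV-GFP and 2 of 6 AAV-SIRT3 libraries, and the groups overlapped.

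Cspg4, which encodes the NG2 proteoglycan of precursors and pericytes, is annotated at 56865033 to 56899870 of chromosome 9 (plus strand). It ran from 1290 through 1415 to 1469 in intact, from 1154 through 1299 to 1376 in AAV-GFP and from 1130 through 1321 to 1404 in AAV-SIRT3 libraries. Here too the virus groups reached lower than intact and overlapped with it.

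Vcan encodes versican, a large matrix proteoglycan made by precursors, and is annotated at 89655312 to 89742509 of chromosome 13 (minus strand). It ran from 1957 through 2105 to 2256 in intact, from 1700 through 1962 to 2037 in AAV-GFP and from 1650 through 1822 to 2016 in AAV-SIRT3 libraries. Of the AAV-SIRT3 libraries, 5 lay below every intact library, and replicate 4, at 2016, was the one inside the intact range.

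Olig1 is annotated at 91269772 to 91271933 of chromosome 16 (plus strand). It ran from 8087 through 9230 to 9677 in intact, from 8895 through 9791 to 10688 in AAV-GFP and from 9688 through 9944 to 10473 in AAV-SIRT3 libraries. The lowest AAV-SIRT3 library stood just above the highest intact one.

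Olig2, which specifies the lineage, is annotated at 91225457 to 91228677 of chromosome 16 (plus strand). It ran from 2129 through 2492 to 2899 in intact, from 2245 through 2598 to 2972 in AAV-GFP and from 2294 through 2540 to 2709 in AAV-SIRT3 libraries. Intact libraries fell into 3 at 2713 or above and 3 at 2271 or below, and that range covered the whole AAV-SIRT3 group.

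Sox10, a driver of myelin gene expression that Schwann cells express as well, is annotated at 79154908 to 79165240 of chromosome 15 (minus strand). It ran from 4522 through 4942 to 5861 in intact, from 4530 through 5364 to 5893 in AAV-GFP and from 4718 through 5175 to 5444 in AAV-SIRT3 libraries. All 3 ranges overlapped widely.

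Gpr17 encodes a receptor that marks committed precursors and holds back their maturation. It is annotated at 31942997 to 31949636 of chromosome 18 (minus strand). It ran from 2966 through 3017 to 3695 in intact, from 2647 through 3154 to 3239 in AAV-GFP and from 2679 through 3117 to 3285 in AAV-SIRT3 libraries. A single intact library, replicate 3, held the highest value.

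Bcas1, a marker of early myelinating oligodendrocytes that is also present in mature ones, is annotated at 170346991 to 170427845 of chromosome 2 (minus strand). It ran from 20873 through 21832 to 25592 in intact, from 20302 through 23464 to 27040 in AAV-GFP and from 22220 through 23615 to 25653 in AAV-SIRT3 libraries. Enpp6, a choline phosphodiesterase of newly forming oligodendrocytes, is annotated at 46986887 to 47096762 of chromosome 8 (plus strand). It ran from 1574 through 1663 to 2240 in intact, from 1411 through 1620 to 1991 in AAV-GFP and from 1478 through 1687 to 1893 in AAV-SIRT3 libraries. For both genes the groups overlapped, and intact replicate 1 was the highest of its group.

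Annotated antisense or other genes overlap Pdgfra, Vcan, Olig1, Gpr17, Bcas1 and Enpp6. The libraries were made with a stranded kit, but whether the counting used the strand is not given in the sources used here, so reads of such partners cannot be told apart from theirs.

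AAV-GFP was compared with intact. The virus, its GFP, any injection and the make-up of the tissue blocks cannot be told apart in this comparison. Fold changes were negative for the 3 genes of the precursor surface and matrix and positive for the 3 transcription factors, but no gene passed the threshold. Of the 9 genes, 0 were called (limma, adjusted p under 0.05 over all genes tested), against 1.84% of all genes, and edgeR and DESeq2 on recovered reads also called 0, against 1.86% and 5.14%. At an unadjusted p under 0.05 stood 4 of the 9, against 19.1% of all genes. They were 3 lower genes, against 9.48% of all genes on that side, and 1 higher gene, against 9.59%. No gene had groups without overlap, against 1.86% of all genes.

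Vcan had a log2 fold change of -0.14 (SE 0.0541), Cspg4 -0.13 (SE 0.056) and Pdgfra -0.11 (SE 0.047), and their adjusted p-values were 0.171, 0.198 and 0.185 (limma). Group means of Vcan were 1918 ± 129 with AAV-GFP and 2106 ± 103 in intact (SD, n = 6 each). AAV-GFP was the higher in only 3 of the 36 pairs of libraries for Vcan, 4 for Cspg4 and 5 for Pdgfra. Olig1 stood on the other side, with 9869 ± 654 against 9097 ± 607, a log2 fold change of 0.12 (SE 0.0463, limma adjusted p = 0.169), higher in 31 of 36 pairs.

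No difference was detectable for the other transcription factors and the genes of the committed stage. Sox10 had 0.08 (SE 0.0639), Olig2 0.06 (SE 0.0791), Bcas1 0.06 (SE 0.0589), Gpr17 -0.07 (SE 0.0675) and Enpp6 -0.09 (SE 0.0932). Their 95% intervals all held 0 and lay between -0.28 and 0.22.

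AAV-SIRT3 was compared with AAV-GFP to see what SIRT3 added to the virus. None of the 9 genes differed detectably. Limma called 0 of 9, against 0.113% of all genes, with 0 of 9 at an unadjusted p under 0.05, against 15.2%. Both edgeR and DESeq2 called 0, against 0.123% and 1.56% of all genes. In all 9 genes the groups overlapped, and 0.751% of all genes had groups that did not.

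Vcan had the largest difference, a log2 fold change of -0.08 (SE 0.0541, limma adjusted p = 0.466), and AAV-SIRT3 was the higher in 8 of 36 pairs. Pdgfra, at 3977 ± 226 against 3971 ± 260, differed by 0.0029 (95% interval -0.09 to 0.10). Cspg4 had 0.02 and Olig1 0.02, with intervals of -0.09 to 0.14 and -0.08 to 0.12. Olig2 and Sox10 both had -0.05, while Gpr17 and Bcas1 both had 0.03 and Enpp6 had 0.01. Over the 9 genes the intervals reached from -0.21 to 0.21, so at n = 6 changes of that size in either direction are not excluded by these data. Sirt3 itself, the delivered gene, was 1937 ± 79.4 in AAV-SIRT3, 1775 ± 92.4 in AAV-GFP and 1824 ± 66.3 in intact libraries (SD, n = 6 each). Against AAV-GFP its log2 fold change was 0.13 (SE 0.0422, limma adjusted p = 0.183), and it did not pass the threshold. The groups overlapped.

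AAV-SIRT3 was also compared with intact, a comparison that uses the same intact libraries as that of AAV-GFP with intact. Vcan fell and Olig1 rose, and the other 7 genes did not pass the threshold. Limma called 2 of 9, against 21.7% of all genes, 1 higher (11.3% of all genes) and 1 lower (10.3%), so the count of 9 genes was at the level of the whole transcriptome. At an unadjusted p under 0.05 stood 3 of 9, against 34.9%.

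Vcan fell by 14.1%, from 2106 ± 103 to 1810 ± 138 (SD, n = 6 each), a log2 fold change of -0.22 (SE 0.0541, limma adjusted p = 0.00667). AAV-SIRT3 was the higher in 1 of 36 pairs. Over the 31 other settings and libraries left out its adjusted p ran from 0.00144 to 0.174, and 30 of them called it. Olig1 rose by 9.84%, from 9097 ± 607 to 9992 ± 274, a log2 fold change of 0.14 (SE 0.0463, limma adjusted p = 0.0374). It was higher in 36 of 36 pairs, and such separation was seen in 5.01% of all genes on that side and 9.33% on either side. Its adjusted p ran from 0.0249 to 0.322 over the same 31 alternatives, of which 19 called it.

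The call of Olig1 was lost without any 1 of intact replicates 4, 5 and 6 or of AAV-SIRT3 replicates 1, 2, 3, 5 and 6, and with edgeR (adjusted p = 0.0556), quantile normalisation (0.0878) or all genes above 0 tested (0.0748). It was also lost, as was that of Vcan, when the trend with transcript length was removed, as given below. DESeq2 called both genes, and edgeR called Vcan alone, against 23.7% and 21.0% of all genes.

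Pdgfra, at 3977 ± 226 against 4295 ± 203, had -0.11 (SE 0.047, limma adjusted p = 0.0934), and Cspg4 had -0.11 (SE 0.056, adjusted p = 0.176). Pdgfra passed with quantile normalisation only, at -0.12 (adjusted p = 0.0485). Bcas1 had 0.08 (SE 0.0589), Sox10 0.03 (SE 0.0639), Olig2 0.01 (SE 0.0791), Gpr17 -0.05 (SE 0.0675) and Enpp6 -0.07 (SE 0.0932). Their intervals all held 0.

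**Figure D2:**
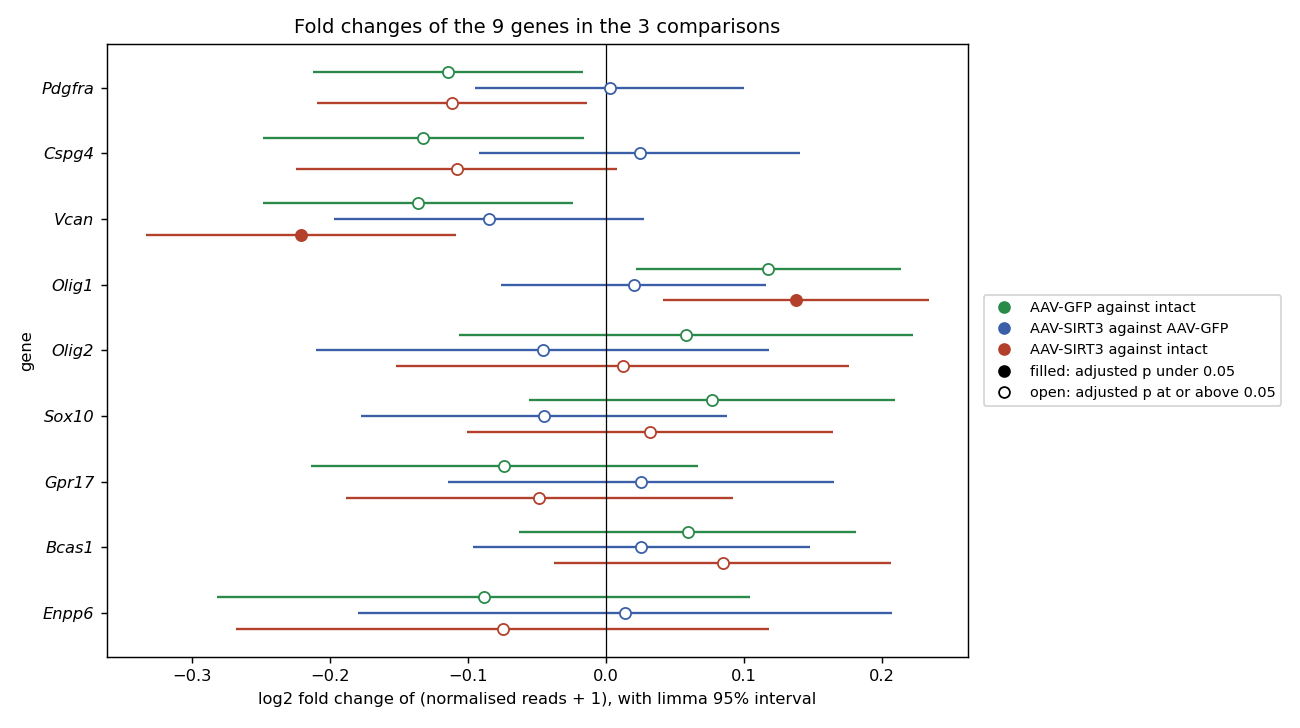
Log2 fold change (horizontal axis, on log2 of normalised reads + 1) of each gene in the 3 comparisons, as points with the 95% interval from limma. Vcan at -0.22 and Olig1 at 0.14 in AAV-SIRT3 against intact are the filled points, and every interval for AAV-SIRT3 against AAV-GFP (blue) crosses 0.

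Ratios within a library are free of the size factor. Olig1 per kb relative to Pdgfra per kb was 9.83 ± 0.657 in intact (8.76 to 10.5), 11.6 ± 1.39 in AAV-GFP (9.29 to 13.3) and 11.7 ± 0.757 in AAV-SIRT3 libraries (10.6 to 12.9). The AAV-SIRT3 ratios all lay above the intact ones, but narrowly, the lowest at 10.61 against the highest intact ratio at 10.54. Of single genes, 9.33% had groups without overlap in this comparison, and the share of ratios was not counted. This ratio sets a gene of 2162 bp over one of 10024 bp, so it is not free of a trend with transcript length. Cspg4 relative to Pdgfra, both surface proteins of the precursor, stayed close, at 0.275 ± 0.0069, 0.271 ± 0.0137 and 0.275 ± 0.00994. Vcan relative to Pdgfra was 0.34 ± 0.0202, 0.335 ± 0.0205 and 0.315 ± 0.014, with overlap between all groups. These ratios were chosen after the values were seen and are given without a test.

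The 9 genes differ in annotated exonic length, from 2162 bp for Olig1 through 2530 bp for Olig2, 3051 bp for Sox10, 3775 bp for Bcas1, 5195 bp for Gpr17, 6412 bp for Enpp6, 10024 bp for Pdgfra and 11931 bp for Cspg4 to 14462 bp for Vcan. Their fold changes against intact went broadly with that order, though not gene by gene. The 4 shortest had positive and the 5 longest negative fold changes, both with AAV-GFP and with AAV-SIRT3. Spearman's rho of fold change with length over the 9 genes was -0.95 where AAV-GFP was set against intact, -0.917 where AAV-SIRT3 was, and -0.117 between the virus groups. Over 18824 genes with a length it was -0.161, -0.22 and -0.162. The genes share their libraries and are not independent points, so these are descriptions.

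With the trend of each library with transcript length removed, Vcan against intact in AAV-SIRT3 went from -0.22 to -0.08 (SE 0.0416, limma adjusted p = 0.174) and Olig1 from 0.14 to 0.06 (SE 0.0429, adjusted p = 0.322). Pdgfra went to -0.02 and Cspg4 to 0.0053. Of the 9 genes, 0 were then called, with 0 at an unadjusted p under 0.05, against 17.0% of all genes called. In AAV-GFP against intact the same step left Vcan at -0.06, Cspg4 at -0.07, Pdgfra at -0.06 and Olig1 at 0.08. In this group of genes, length goes with role, since the surface and matrix genes are the 3 longest and the transcription factors the 3 shortest, so the part of each cannot be told apart here.

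**Figure D3:**
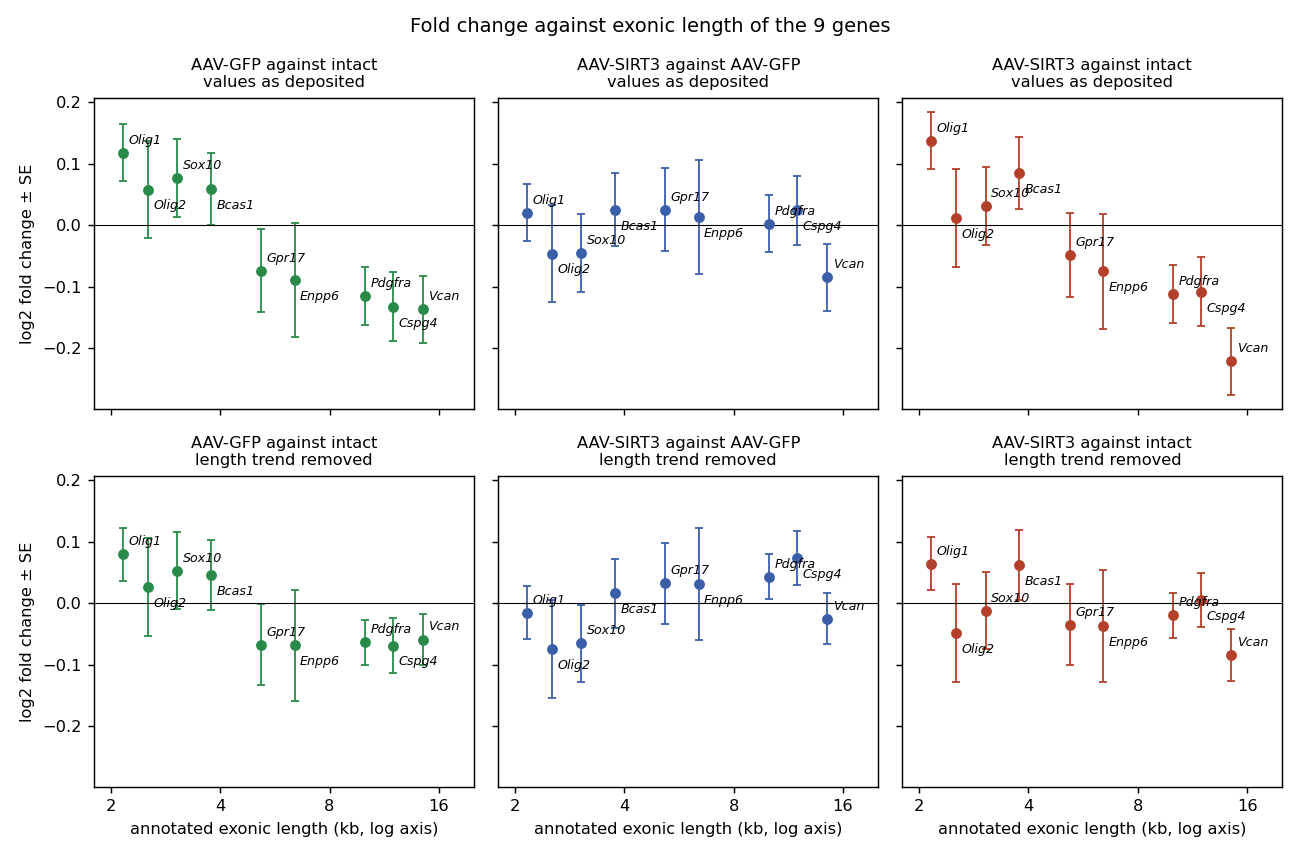
Log2 fold change ± SE from limma (vertical axes) against annotated exonic length in kb (horizontal axes, log scale) for the 9 genes, with values as deposited above and with the length trend removed below, for the 3 comparisons. Against intact, fold changes run from Olig1, the shortest, at 0.12 and 0.14 down to Vcan, the longest, at -0.14 and -0.22, and draw closer to 0 for both genes once the trend is removed.

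The make-up of the tissue blocks also differed. The summed level of 10 genes of thalamic neurons, which lie next to the midbrain, ran from 59755 to 106499 normalised reads in intact, from 92400 to 104219 in AAV-GFP and from 87732 to 112571 in AAV-SIRT3 libraries, with no gene of the list at 0. Of its genes 1 rose in AAV-GFP against intact, 7 in AAV-SIRT3 against intact and 0 between the virus groups. Over all genes limma called 1.84% in either direction, 11.3% higher and 0.113% in either direction, in the same order. With the score of this list as a covariate, Vcan in AAV-SIRT3 against intact was at -0.23 (limma adjusted p = 0.0409) and Olig1 at 0.19 (adjusted p = 0.0379). The pituitary hormone genes Gh and Prl were higher in intact libraries, Gh at 1195 ± 774 against 81.4 ± 116 in AAV-GFP and 157 ± 150 in AAV-SIRT3, and Prl at 244 ± 161 against 18.6 ± 29.8 and 31.3 ± 33.9 (SD, n = 6 each). Both fell in each virus group against intact, with limma adjusted p-values of 0.0214 and 0.0182 for Gh and 0.0234 and 0.0358 for Prl, in AAV-GFP and AAV-SIRT3. Their part in the values of Vcan and Olig1 was not tested. The dopaminergic markers Th, Slc6a3 and Ddc were present in all 18 libraries, the lowest values being 3673, 6087 and 3673 normalised reads. AAV-GFP replicate 2 and AAV-SIRT3 replicate 6 had stood apart in an earlier analysis of these data. Leaving out both, 2 of 9 genes were again called in AAV-SIRT3 against intact, with Vcan at -0.20 (limma adjusted p = 0.00773) and Olig1 at 0.14 (adjusted p = 0.0462).

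Other cell types share some of these genes. Pdgfra and Vcan are expressed by fibroblasts, and a list of 9 fibroblast and meningeal genes summed to 7421 to 12887 normalised reads in intact, 5661 to 11419 in AAV-GFP and 4468 to 10403 in AAV-SIRT3 libraries. In AAV-SIRT3 against intact, 0 of its genes rose and 2 fell, against 11.3% and 10.3% of all genes. Slc6a13, a GABA transporter, fell by 0.76 and Fmod, fibromodulin, by 0.76 on the log2 scale, and the median of this list was -0.50. The number called was 1 with edgeR and with DESeq2, against 21.0% and 23.7% of all genes, and 0 with the thalamus covariate. It was 4 without AAV-GFP replicate 2 and AAV-SIRT3 replicate 6, and 0 to 5 with each library left out. Among all 19443 genes tested, the thalamus covariate took the number called from 4214 to 1808. Within groups, the score of this list went against Vcan (r = -0.62) and Pdgfra (r = -0.45) over the 18 libraries. Pericytes share Cspg4, and their 10 genes summed to 12598 to 15926, 12300 to 15828 and 10310 to 14587 normalised reads. Of these, 0 rose and 2 fell in AAV-SIRT3 against intact, against the same shares of all genes. Pdgfrb, the pericyte PDGF receptor, fell by 0.30 and Notch3 by 0.22, and the list's median was -0.22. Group means of Rgs5 and Kcnj8 were higher in AAV-SIRT3, and those of the other genes of the list were lower. Rgs5 was at 4434 ± 454 against 4228 ± 323 in intact, and Kcnj8 at 219 ± 34.9 against 196 ± 32.2 (SD, n = 6 each). The number called was 1 with the thalamus covariate, 4 without the same 2 libraries and 1 to 4 with each library left out. Its score within groups went against Cspg4 (r = -0.55). The part of these cells in the values of Vcan, Pdgfra and Cspg4 was not tested further. Sox10 is shared with Schwann cells, whose 6 genes summed to 569 to 903, 443 to 624 and 390 to 619 normalised reads. In AAV-SIRT3 against intact 2 of the 4 that could be tested fell, Scn7a by 0.68 and Ncmap by 0.45, against 10.3% of all genes. Of the same list, Pmp2 was at or near 0 in all groups, its highest value being 1.83 normalised reads, in an intact library.

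Within groups, the 9 genes varied in 2 sets. Values were taken on the log2 scale less the group mean and correlated over the 18 libraries, which share the library, its size factor and its block of tissue between genes. The surface and matrix genes went together, Pdgfra with Cspg4 at r = 0.81, Cspg4 with Vcan at 0.64 and Pdgfra with Vcan at 0.59. The transcription factors formed the other set, Olig1 with Olig2 at 0.71 and with Sox10 at 0.64, and Bcas1 went with Sox10 at 0.62 and with Olig1 at 0.51. Between the sets, the 9 pairs of a surface or matrix gene with a transcription factor had a median r of 0.05, from -0.24 to 0.31.

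Gpr17 sat nearer the precursor genes, with r = 0.48 with Cspg4 and 0.46 with Pdgfra against -0.10 with Bcas1. Enpp6 had its highest value with Pdgfra, at 0.40, close to those with Olig2 (0.38) and Bcas1 (0.33). With the length trend removed, Olig1 with Olig2 was at 0.76, Olig1 with Sox10 at 0.66 and Sox10 with Bcas1 at 0.61, and Pdgfra with Cspg4 was at 0.61. Vcan lost its link, with r = 0.13 with Pdgfra and 0.22 with Cspg4, and its highest value was then with Olig2, at 0.44. Enpp6 was then also highest with Olig2, at 0.40, and had 0.33 with Pdgfra. These coefficients rest on 18 libraries and carry no test.

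**Figure D4:**
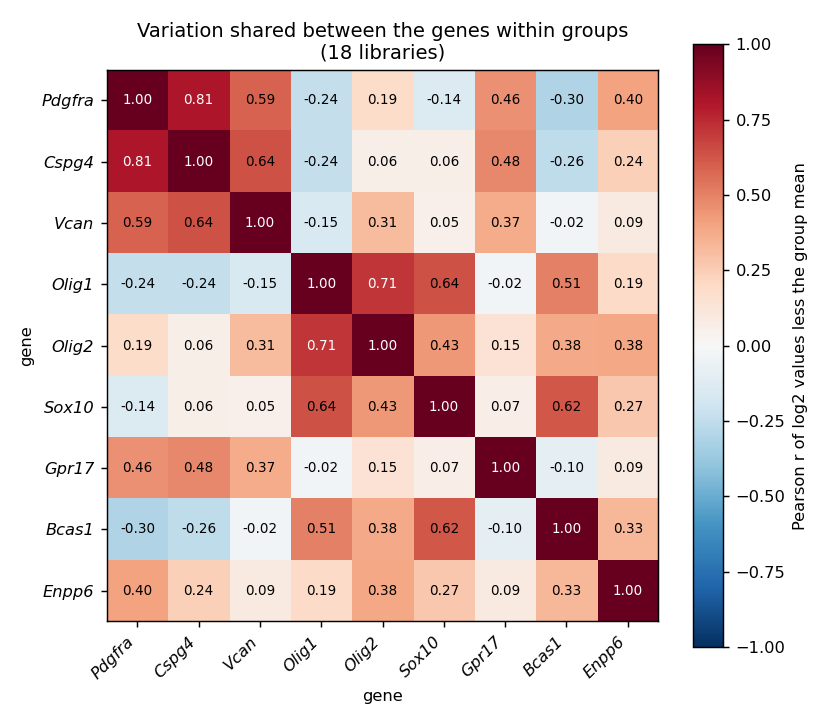
Pearson r (colour scale from -1 to 1, and printed) between the 9 genes on both axes, for log2 values less the group mean over 18 libraries. Pdgfra, Cspg4 and Vcan form a block with r from 0.59 to 0.81, and Olig1, Olig2 and Sox10 one with r from 0.43 to 0.71.

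The score of 16 mature oligodendrocyte and myelin genes had within-group r = 0.70 with Bcas1, 0.69 with Olig1, 0.64 with Enpp6, 0.60 with Sox10 and 0.51 with Olig2. It had r = -0.10 with Gpr17, -0.18 with Pdgfra, -0.26 with Cspg4 and -0.30 with Vcan. The score of 20 other OPC genes went with Cspg4 (0.67), Pdgfra (0.61) and Vcan (0.59) most.

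A search over 15244 genes with a mean of at least 50 gave the closest patterns within groups over the 18 libraries. Pdgfra was closest to Ptprz1 (r = 0.89), a receptor phosphatase of precursors, then to Scn2a and Taf1 (both 0.88). Cspg4 was close to Cds2 (0.89) and Mob1b (0.88), and Vcan was closest to Arid1b, Ptch1 and Mdga2 (0.83 each). All of these have exons of 6008 bp or more in the annotation. Olig1 was closest to Cdh24 (0.80), 1700096K18Rik (0.78) and Hepacam (0.77), Olig2 to Atxn3 (0.84), Gm30340 (0.81) and Slc7a10 (0.78), and Sox10 to Arhgap23 (0.86), Ddr1 (0.84) and Slc44a1 (0.84). Gpr17 was closest to Map3k19 (0.84), Sgsm1 (0.81) and 1700003E16Rik (0.78). Bcas1 was closest to Kif1c (0.86), to the myelin gene Mobp (0.86) and to Slain1 (0.84), and Enpp6 to Rnf141 (0.93), Rnf13 (0.90) and Tmod1 (0.86).

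Other genes of the same stages were read from lists made from general knowledge of the lineage. In AAV-GFP against intact, 0 of 20 other OPC genes, 0 of 16 myelin genes, 0 of 5 PDGF ligands and receptors, 0 of 17 regulators of OPC differentiation and 0 of 10 proliferation genes passed. Of 15 genes of committed and newly formed oligodendrocytes, 1 rose, the tetraspanin Cd9, from 2746 to 3359 normalised reads (log2 fold change 0.29, SE 0.047, limma adjusted p = 0.00431). Microglia express Cd9 too, and their part in its rise was not tested. Of 10 microglial and 10 activated microglial genes, 4 and 8 rose in the same comparison, against 1.84% of all genes called in either direction. In AAV-SIRT3 against intact 6 and 4 rose, against 11.3% of all genes. Between the virus groups 1 and 2 fell with AAV-SIRT3, against 0.113% of all genes called in either direction. Over the 83 genes of the 6 lineage lists, in AAV-GFP against intact, limma called 1, with 10 at an unadjusted p under 0.05, edgeR 2 and DESeq2 5. Over all genes limma called 1.84%, with 19.1% at an unadjusted p under 0.05, edgeR 1.86% and DESeq2 5.14%. In AAV-SIRT3 against AAV-GFP, limma called 0 of the 83, with 21 at an unadjusted p under 0.05, edgeR 0 and DESeq2 3. The unadjusted count is 25.3%, against 15.2% of all genes. Of all genes, limma called 0.113%, edgeR 0.123% and DESeq2 1.56%. Where AAV-SIRT3 was set against intact, limma called 25 of the 83 against 21.7% of all genes. At an unadjusted p under 0.05 stood 36 (43.4%, against 34.9% of all genes). The count was 22 with edgeR, against 21.0% of all genes, and 28 with DESeq2, against 23.7%.

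In AAV-SIRT3 against intact the other OPC genes moved both ways, 4 higher and 3 lower of 20 (against 11.3% and 10.3% of all genes), with a median of 0.04 against -0.0049 over all genes. Pcdh15, a protocadherin, fell by 0.38 (SE 0.0727, limma adjusted p = 0.00152), Tnr, the matrix protein tenascin-R, by 0.31 and Sox6, a factor that holds precursors undifferentiated, by 0.22. Pcdh15 and Tnr were lower in all 36 pairs of libraries and were called in all 31 alternatives, where Pcdh15 was at -0.18 and Tnr at -0.18 with the length trend removed. Rlbp1, a retinoid-binding protein of precursors, rose by 0.18, Megf11 by 0.17 and the matrix metalloprotease Mmp15 by 0.17, and these were called in 18, 12 and 13 of 31. Lhfpl3, named after its values were seen to complete the count, rose by 0.13. Sox6 was called in 26 of 31 alternatives and not with the length trend removed, where it was at -0.08 (limma adjusted p = 0.332). With the length trend removed 4 of the 20 were called, against 17.0% of all genes. With the thalamus score as a covariate 4 were called, against 1808 of all 19443 genes tested.

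Of the 15 committed and newly formed genes, 3 rose and 1 fell, against 21.7% of all genes called in either direction. Tcf7l2, a Wnt effector that thalamic neurons express as well, rose by 0.65 (SE 0.153), Cnksr3 by 0.36 and Tmem163, a zinc transporter, by 0.29, and Itpr2, an intracellular calcium channel, fell by 0.21, a call that was lost with the length trend removed, at -0.07 (limma adjusted p = 0.371). With the thalamus score as a covariate, 0 of the 15 were called. That covariate took the calls among all 19443 genes tested from 4214 to 1808. Of 16 myelin genes, 3 rose, against 11.3% of all genes, Cldn11 by 0.20, Mobp by 0.18 and Mal by 0.17, with a list median of 0.05, and 2 were called with that covariate.

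Of the PDGF genes, the precursor mitogen Pdgfa rose by 0.16 (SE 0.0546, limma adjusted p = 0.0406), and Pdgfrb fell by 0.30. Pdgfa was called in 16 of 31 alternatives. Of the 17 regulators, 3 rose and 5 fell, where limma called 11.3% of all genes higher and 10.3% lower. The same shares stand beside the PDGF and proliferation counts given here. The Notch targets Hes5 and Hes1 rose by 0.43 and 0.27 and Id4, an inhibitor of differentiation, by 0.27. The Notch ligand Jag1 fell by 0.42, the receptor Notch1 by 0.40 and Egfr by 0.37. Zeb2 and Fgfr2, named after their values were seen to complete the count, fell by 0.26 and 0.21. Hes5 ran from 168.4 through 263 to 306.9 in intact and from 285.8 through 338.5 to 352.4 in AAV-SIRT3 libraries, and Notch1 from 1217 through 1430 to 1465 and from 820.3 through 1070 to 1235. Both pairs of groups overlapped at the edge. With the thalamus score as a covariate, 2 of the 17 regulators were called, against 1808 of all 19443 genes tested. With the length trend removed, the calls of Rlbp1, Mal, Pdgfa, Hes5, Hes1 and Notch3 were lost as well (limma adjusted p from 0.0819 to 0.157). Of the proliferation genes, 0 rose and 1 fell, Ccnd1, a cyclin of G1, by 0.25.

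**Figure D5:**
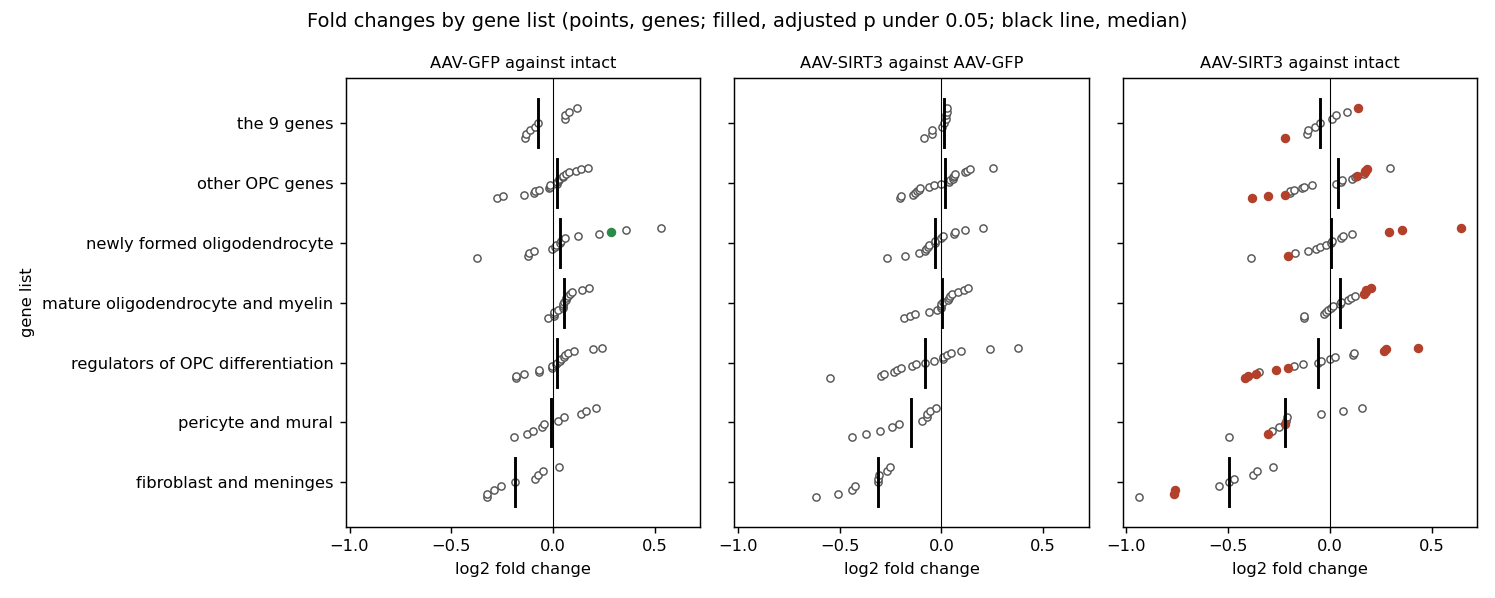
Log2 fold change (horizontal axes) of each gene in 7 lists (vertical axis) for the 3 comparisons, with filled points for an adjusted p under 0.05 and a black line at the list's median. The 9 genes lie between -0.22 and 0.14 in AAV-SIRT3 against intact, where the other OPC genes hold 4 filled points to the right and 3 to the left.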

How the data were processed

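Deposited values are a signal (reads per gene divided by a size factor), and the submitters' processing notes name HISAT2 2.1.0, DESeq2 1.34.0 and the build mm10. The annotation and strand setting of the counting are not given in the sources used here. Each column times its size factor gave whole reads for 100% of values above 0 (tolerance 1e-06 reads), 47182529 to 64728587 per library. In 2 of 18 columns the factor lies within 1% of 1, so the steps prove less there. No 2 replicates agreed within sampling noise (chi-square per degree of freedom 8.27 to 36.6). Per the series' text the libraries are separate mice.

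Tests used limma 3.58.1 in R 4.3.3 on log2(value + 1), in 1 model of all groups with trended prior variance, over 19443 genes that reached 10 in 6 or more libraries, with Benjamini-Hochberg adjustment called under 0.05. This scale understates fold changes of low genes. All p-values are two-sided. The procedure was tested on simulated data.

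Alternatives were pseudocounts of 0.5 and 10, all genes above 0, a mean of at least 50, TMM factors, quantile normalisation, edgeR 4.0.16 and DESeq2 1.42.0 on recovered reads, fits of 2 groups, a replicate block, a thalamus score as covariate, a loess trend with exonic length removed, and each library left out. Leaving out 2 libraries together, and correlations with the length trend removed, were added after seeing the data. The 9 genes and all lists were chosen with earlier results of these data known. Named from each list and comparison were up to 3 rises and 3 falls past the threshold with the largest fold changes, and for each of the 9 genes the 3 closest patterns, of which 1 is not reported here. Lists for astrocytes and dopaminergic neurons were also counted. Of astrocyte genes 1, 0 and 1 of 10 passed in AAV-GFP against intact, AAV-SIRT3 against AAV-GFP and AAV-SIRT3 against intact, all higher, and of dopaminergic genes 2, 0 and 0 of 8, lower. The shares of all genes called in either direction were 1.84%, 0.113% and 21.7%. Positions and lengths are from GENCODE M21 by symbol, and promoter windows from RefSeq, which matched 5 of the 9 genes. Windows end 72 bases before the RefSeq start, and the 3 shown lie outside the genes as annotated in GENCODE. The Olig2 window, not shown, ends at 91225478, past the GENCODE start of Olig2 at 91225457.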

Additional observations from a re-analysis of the deposited data

How the results depend on the processing

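Over the alternatives, 0 of the 9 genes were called in AAV-GFP against intact and in AAV-SIRT3 against AAV-GFP under every setting and with each library left out. In AAV-SIRT3 against intact, 2 were called, but 1 with all genes above 0 tested, 1 with edgeR, 0 with the length trend removed and 1 to 2 with each library left out. All genes called in AAV-GFP against intact numbered 358, but 164 with all genes above 0, 1000 with DESeq2, 199 in the fit of 2 groups, 32 with the thalamus score, 230 without both AAV-GFP replicate 2 and AAV-SIRT3 replicate 6 and 129 to 686 with each library left out. In AAV-SIRT3 against AAV-GFP they numbered 22, but 304 with DESeq2, 8 in the fit of 2 groups, 357 without those 2 libraries and 5 to 861 with each library left out. In AAV-SIRT3 against intact they numbered 4214, but 1808 with the thalamus score and 3279 to 4633 with each library left out. The cause was not tested.

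With the replicate block, 372, 13 and 3923 genes passed in the 3 comparisons, and 0, 0 and 2 of the 9. Same-numbered libraries did not deviate together (median r = -0.0053, -0.10 to 0.18 over 18 pairs), and 1 of 18 matched its own number best, so the numbers were not taken to pair mice.

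These fold changes turned sign. In AAV-SIRT3 against AAV-GFP, Pdgfra was at -0.0066 with quantile normalisation, Olig1 at -0.015 with the length trend removed and Enpp6 at -0.019 without AAV-GFP replicate 2 and AAV-SIRT3 replicate 6. With each library left out the range was -0.020 to 0.036 for Pdgfra, -0.0051 to 0.065 for Cspg4, -0.0094 to 0.044 for Olig1, -0.011 to 0.063 for Gpr17, -0.014 to 0.069 for Bcas1 and -0.032 to 0.067 for Enpp6. Enpp6 was at 0.013 and 0.026 against intact with the thalamus score, in AAV-GFP and AAV-SIRT3. In AAV-SIRT3 against intact, Olig2 was at -0.0099 with quantile normalisation, -0.0054 with edgeR, -0.048 with the length trend removed and -0.034 to 0.055 with each library left out, and the length trend removed put Cspg4 at 0.0053 and Sox10 at -0.012.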
